A study of Mus musculus with 16 samples.

Results

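The genes described are 38 named genes of fatty acid oxidation and of the nuclear receptor PPAR-alpha, which switches that pathway on, in the cortex of mouse kidneys. They were taken from a fixed list of gene names, each read from the probe set of highest mean over the 16 arrays, and 35 of the 38 had a probe set annotated to them alone, of 22180 genes tested in all. Of the 35, 19 act in mitochondria and 10 in peroxisomes. The other 6 are receptor, uptake, activation, thioesterase or carnitine transfer genes placed in neither set. The carnitine palmitoyltransferase Cpt1b and the acyl-CoA synthetases Acsl1 and Acsl3 were not analysed here, the first and the last because their probe sets carry several gene symbols.

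The 4 genotypes compared had 4 Affymetrix arrays each, all from 3-month-old mice on a normal diet. Wild-type mice were C57BL/6. Vhl mutants carried 2 floxed alleles of Vhl with the Ksp-Cre transgene (Vhl F/F;Ksp), Pbrm1 mutants carried 2 floxed alleles of Pbrm1 with Ksp-Cre (Pbrm1 F/F;Ksp), and double mutants carried both floxed pairs with Ksp-Cre (Vhl F/F;Pbrm1 F/F;Ksp). All 3 mutant groups were on a mixed C57BL/6, BALB/c and 129 background, so that genotype, Cre and strain cannot be told apart in a comparison with wild type. Ksp-Cre is driven by the promoter of Cdh16, a cadherin of tubule epithelium, so cells outside the tubules should keep both genes. What share of the cells of each tubule segment, the proximal tubule among them, lost the genes was not measured. Vhl encodes the subunit of a ubiquitin ligase that marks hypoxia-inducible factors for destruction, and Pbrm1 a subunit of the PBAF chromatin remodeler. Their loss is common in clear cell renal cell carcinoma, a tumor of lipid-filled cells, and the 2 deletions were studied alone and together.

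Fatty acids are the main fuel of the proximal tubule. They are taken up, joined to coenzyme A, carried into mitochondria as carnitine esters and shortened in a cycle of dehydrogenation, hydration, a further dehydrogenation and thiolysis, with electrons leaving through the flavoprotein ETF. Peroxisomes run a parallel cycle on very long, branched and bile acid side chains, which begins with an acyl-CoA oxidase and makes hydrogen peroxide. PPAR-alpha binds fatty acids and activates genes of both compartments, most strongly in fasting.

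Values are on the log2 scale that robust multi-array averaging (RMA) gives. A log2 fold change is a difference between 2 groups from a limma fit over all 22180 genes, given with its standard error (SE), and a gene is said to rise or fall where its Benjamini-Hochberg adjusted p was under 0.05. Array medians lay between 5.18 and 5.27. The 15 proximal tubule markers had wild-type means from 10.33 to 12.81, which matches the labelled tissue, and their median moved by at most 0.10 from the wild-type mean in any array. Neither deleted gene passed where it was deleted. Vhl lay between 6.23 and 6.55 in wild-type, between 6.25 and 6.30 in Vhl mutant and between 6.08 and 6.51 in double mutant arrays (log2 fold change -0.06 and -0.12, adjusted p = 0.85 and 0.55). Pbrm1 lay between 8.14 and 8.26 in wild-type, between 8.15 and 8.24 in Pbrm1 mutant and between 8.02 and 8.19 in double mutant arrays (-0.01 and -0.07, adjusted p = 0.98 and 0.61). These probe sets may cover exons that Cre leaves in place, and cells that keep both genes may add to the signal. Neither was tested, and the values check nothing about the labels. The labels give each group 2 numbers that may mark animals. Replicates 1 and 2 share one number and 3 and 4 the other, except that double mutant replicates 1, 2 and 3 share a number and replicate 4 has its own. Each description also holds an L or an R, which may mark the kidney. In the other groups each number has 1 array of each letter. Double mutant replicate 1 is L and replicates 2, 3 and 4 are R, so replicates 2 and 3 carry the same description. The numbers of the Vhl mutants lie above all others, and a batch they might mark cannot be told apart from that genotype. No label says that each array is a separate animal. The p-values therefore measure only array-to-array spread, part of which may be technical. With arrays averaged per number, 22 of the 36 calls made for these genes over 7 comparisons ended. Over all genes the same averaging cut calls from 453 higher and 398 lower to 188 and 58 in Vhl mutants against wild type.

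Fatty acid oxidation genes were among the well expressed genes of the cortex. Of the 35, 34 had a wild-type mean above the median of all genes, 5.21. Their wild-type means ran from 4.86 for Hadhb, the thiolase subunit of the mitochondrial trifunctional protein, to 12.21 for Acadm, the medium-chain acyl-CoA dehydrogenase, with a median of 9.43. Levels of different probe sets also depend on their probes and are not ranked here. Within a group the SD of a gene had a median of 0.09 and reached 0.78.

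Promoters of some members are shown to place the results on sequence. RefSeq promoters (GRCm38.p6, 250 bases before the annotated start, 5′ to 3′ on the gene's strand) were found for 33 of the 38 genes. Motifs were searched on both strands. The PPAR element, AGGTCA repeated after 1 base (AGGTCANAGGTCA), was allowed up to 2 mismatches, and the core of the hypoxia response element is ACGTG or GCGTG. Capitals mark matches, and an element on the opposite strand appears as its reverse complement. The first 3 promoters belong to genes that were lower in both groups lacking Pbrm1. The fourth belongs to the short-chain dehydrogenase gene Acads, which fell in double mutants. The last belongs to Etfa, which holds both motifs, as does Echs1, not shown.
Acox2, chr14:8259020-8259269, minus strand: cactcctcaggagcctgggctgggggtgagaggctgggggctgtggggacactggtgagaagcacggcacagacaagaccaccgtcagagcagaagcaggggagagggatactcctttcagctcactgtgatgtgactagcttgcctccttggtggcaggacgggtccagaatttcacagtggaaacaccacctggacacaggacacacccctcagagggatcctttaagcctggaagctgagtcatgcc
Decr2, chr17:26090165-26090414, minus strand: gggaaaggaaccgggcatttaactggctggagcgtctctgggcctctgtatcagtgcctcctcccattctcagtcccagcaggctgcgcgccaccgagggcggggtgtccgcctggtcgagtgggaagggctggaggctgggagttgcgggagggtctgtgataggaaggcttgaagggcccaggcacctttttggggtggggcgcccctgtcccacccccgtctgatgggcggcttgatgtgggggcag
Slc25a20, chr9:108661886-108662135, plus strand: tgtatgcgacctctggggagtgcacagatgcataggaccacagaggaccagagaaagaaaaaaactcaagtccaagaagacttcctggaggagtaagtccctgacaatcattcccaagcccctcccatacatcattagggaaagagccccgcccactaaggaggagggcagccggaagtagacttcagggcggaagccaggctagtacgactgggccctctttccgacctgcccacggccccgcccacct
Acads, chr5:115119347-115119596, minus strand: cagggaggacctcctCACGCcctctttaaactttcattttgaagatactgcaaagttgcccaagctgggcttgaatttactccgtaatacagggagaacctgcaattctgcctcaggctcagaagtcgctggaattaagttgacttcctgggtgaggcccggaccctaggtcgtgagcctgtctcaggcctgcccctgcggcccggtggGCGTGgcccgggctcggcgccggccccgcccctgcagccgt
Etfa, chr9:55512244-55512493, minus strand: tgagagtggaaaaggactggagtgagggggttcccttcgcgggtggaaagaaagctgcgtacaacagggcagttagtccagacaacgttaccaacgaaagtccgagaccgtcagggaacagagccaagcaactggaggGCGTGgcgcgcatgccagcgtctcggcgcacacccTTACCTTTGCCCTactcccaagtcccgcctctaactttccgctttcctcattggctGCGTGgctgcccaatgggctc
In these windows Acox2, Decr2 and Slc25a20 hold neither motif. The exact PPAR element was in 0 of the 33 genes' promoters and in 0.041% of all 27025 genes with one. With up to 2 mismatches it was in 3 of the 33 (9.09%), Cd36, Echs1 and Etfa, against 3.72% of all genes. The hypoxia core was in 16 of 33 (48.5%) against 41.5% of all genes. The single unit AGGTCA, which the PPAR element contains, was in 5 of 33 (15.2%) against 15.8% of all genes. A match describes letters, not a bound site.

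The receptor itself did not pass in any of the 7 comparisons. Ppara measured 7.80, 7.63, 7.50 and 7.42 in wild-type replicates 1 to 4, 7.20, 7.37, 7.84 and 7.85 in Vhl mutants, 7.86, 7.87, 7.68 and 7.77 in Pbrm1 mutants, and 7.70, 7.81, 7.88 and 7.65 in double mutants. The groups overlap, and the Vhl mutant arrays fall into a lower and a higher pair that follow their numbers. Its log2 fold change was -0.02 in Vhl mutants against wild type (95% interval -0.28 to 0.23, limma adjusted p = 0.95), 0.21 in Pbrm1 mutants (-0.04 to 0.47, adjusted p = 0.43) and 0.17 in double mutants (-0.09 to 0.42, adjusted p = 0.47). Among 12 related receptors and coactivators, 0 passed in either single mutant (limma, 3 and 2 of them lower and 0 and 1 higher at an unadjusted p under 0.05 in Vhl and Pbrm1 mutants). Of all genes, 2.04% rose and 1.79% fell in Vhl mutants, and 1.59% and 2.45% did in Pbrm1 mutants. In double mutants 1 of the 12 fell (8.33%), where 6.64% of all genes rose and 5.56% fell, so the share called is near that of all genes. The 1 that fell was Esrra, the estrogen-related receptor that drives mitochondrial genes with the coactivator Ppargc1a. Esrra measured 7.71, 7.76, 7.55 and 8.01 in wild-type and 7.43, 7.22, 7.15 and 7.35 in double mutant arrays, which do not overlap (log2 fold change -0.47 ± 0.09 SE, adjusted p = 0.0020). Ppargc1a had a log2 fold change between -0.16 and 0.00 in the 3 groups against wild type and did not pass.

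In Vhl mutants 1 of the 35 genes rose and 0 fell, where 2.04% of all genes rose and 1.79% fell (limma), so the share called is near that of all genes. At an unadjusted p under 0.05, 3 were higher and 3 lower. The median log2 fold change was 0.00. The gene that rose was Acot2, a mitochondrial thioesterase that frees fatty acids from coenzyme A. It measured 10.01, 10.13, 10.43 and 10.40 in wild-type replicates 1 to 4 and 10.88, 10.76, 10.59 and 10.61 in Vhl mutants. The groups do not overlap, and their nearest arrays are the wild-type and Vhl mutant arrays 3 and 4. Acot2 rose 1.38-fold, a log2 difference of 0.47 ± 0.08 SE (adjusted p = 0.0026) and did not pass with arrays averaged per number (adjusted p = 0.081). It is one of a cluster of near-identical thioesterase genes, whose probe sets may share signal.

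In Pbrm1 mutants the calls came from both compartments. Of the 35, 1 rose and 3 fell, where 1.59% of all genes rose and 2.45% fell, and the median log2 fold change was 0.01. Acox2, the peroxisomal oxidase that starts shortening of branched chains and bile acid precursors, moved most. It measured 8.34, 8.46, 8.42 and 8.26 in wild-type arrays and 7.06, 7.0, 6.75 and 6.89 in Pbrm1 mutant arrays. Every Pbrm1 mutant array lies more than 1 log2 unit below every wild-type array. Acox2 fell 2.72-fold, a log2 difference of -1.45 ± 0.24 SE (adjusted p = 0.0011).

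Slc25a20, the carrier that exchanges acylcarnitine for carnitine across the inner mitochondrial membrane, measured 7.64, 7.62, 7.64 and 7.58 in wild-type and 7.16, 7.16, 7.07 and 7.08 in Pbrm1 mutant arrays. It fell 1.41-fold, a log2 difference of -0.50 ± 0.08 SE (adjusted p = 3.7e-04), with no overlap. Decr2, a peroxisomal reductase for unsaturated chains, measured 9.55, 9.33, 9.42 and 9.43 in wild-type and 9.09, 8.85, 8.93 and 8.97 in Pbrm1 mutant arrays. The groups do not overlap, and Decr2 fell 1.39-fold, a log2 difference of -0.47 ± 0.12 SE (adjusted p = 0.031). Leaving out wild-type replicate 1, 3 or 4 or Pbrm1 mutant replicate 2, 3 or 4 ended that call (adjusted p from 0.053 to 0.091).

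Eci1, a mitochondrial isomerase that also serves unsaturated chains, moved the other way. It measured 8.73, 8.72, 8.64 and 8.77 in wild-type and 9.33, 9.27, 9.45 and 9.32 in Pbrm1 mutant arrays. It rose 1.54-fold, a log2 difference of 0.63 ± 0.10 SE (adjusted p = 4.8e-04), with no overlap. Its peroxisomal relative Eci2 had a log2 fold change of -0.13 ± 0.07 SE and did not pass.

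**Figure D1:**
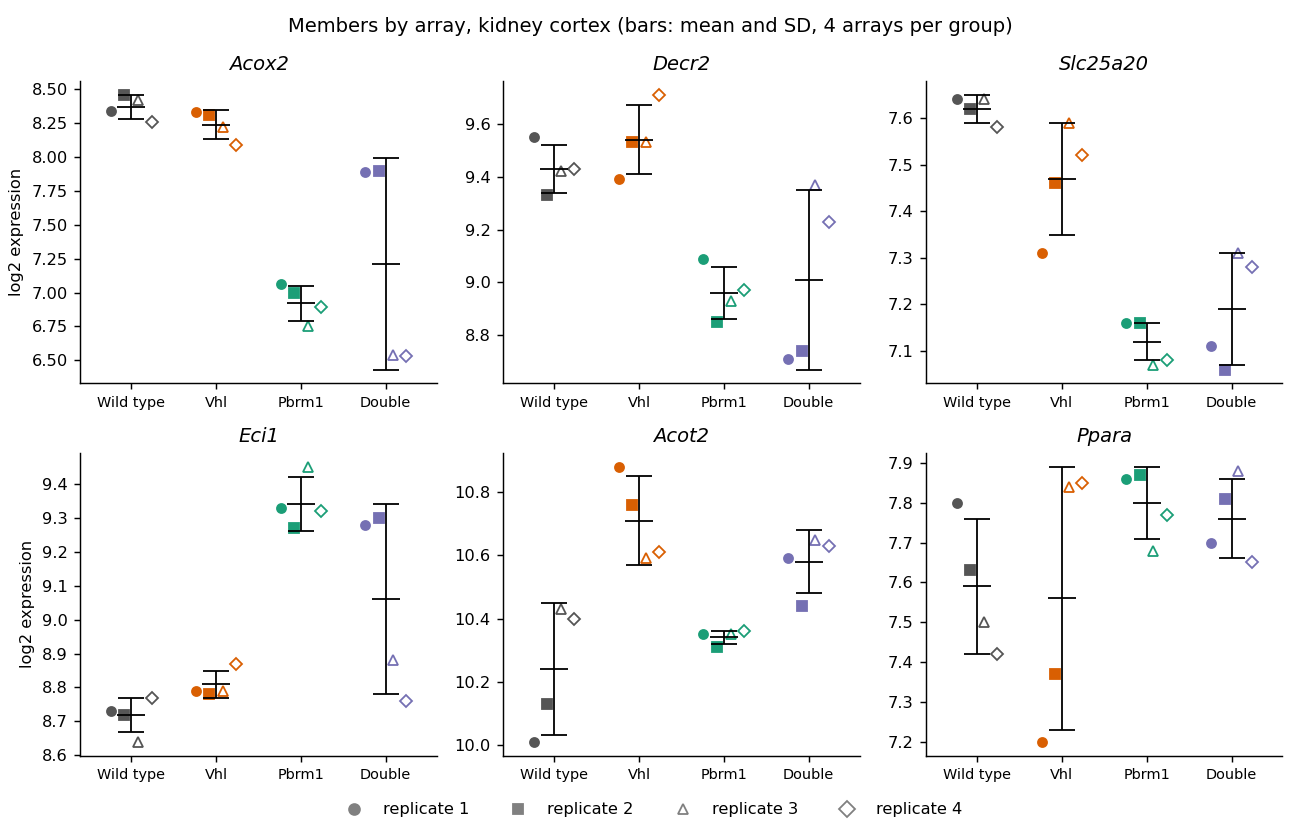
Log2 expression (vertical axis) of Acox2, Decr2, Slc25a20, Eci1, Acot2 and Ppara in each of the 16 arrays, by genotype; symbols mark the replicate, bars the mean and SD of 4 arrays. Acox2 lies between 6.75 and 7.06 in Pbrm1 mutants and in double mutants splits into 7.89 and 7.90 for replicates 1 and 2 and 6.54 and 6.53 for replicates 3 and 4.

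Loss of both genes gave more calls, most of them falls. Of the 35, 2 rose and 8 fell, where 6.64% of all genes rose and 5.56% fell. The median log2 fold change was -0.11, beside -0.02 for all genes. Of the mitochondrial genes, 2 of 19 rose and 4 fell. Of the peroxisomal genes, 0 of 10 rose and 3 fell, and 1 of the 6 others fell. The same wild-type arrays served all 3 comparisons, so they are not independent.

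Acads, Etfb, Etfdh, Ehhadh and Crat were among the genes that fell. Acads, which opens the cycle on short chains, measured 9.72, 9.80, 9.65 and 9.77 in wild-type, 9.62, 9.70, 9.32 and 9.44 in Vhl mutant, 9.76, 9.63, 9.81 and 9.66 in Pbrm1 mutant and 9.25, 9.23, 9.40 and 9.07 in double mutant arrays. The double mutant arrays lie below every wild-type and Pbrm1 mutant array and overlap the Vhl mutants. Acads fell by 0.50 on the log2 scale against wild type (± 0.08 SE, adjusted p = 2.5e-04), by 0.48 against Pbrm1 mutants (adjusted p = 3.8e-04) and by 0.29 against Vhl mutants (adjusted p = 0.038). Leaving out double mutant replicate 1, 2 or 4 or Vhl mutant replicate 1 or 2 ended the last call (adjusted p from 0.069 to 0.15).

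Etfb, a subunit of the flavoprotein that takes electrons from the dehydrogenases, measured 9.99, 9.92, 10.07 and 10.10 in wild-type and 9.83, 9.64, 9.78 and 9.68 in double mutant arrays (log2 fold change -0.29 ± 0.07 SE, adjusted p = 0.0055). Etfdh, which passes those electrons to ubiquinone, measured 10.30, 10.17, 10.29 and 10.22 in wild-type and 10.03, 10.10, 9.96 and 10 in double mutant arrays (log2 fold change -0.22 ± 0.06 SE, adjusted p = 0.011). Neither gene's groups overlap. Both also fell against Vhl mutants, Etfb by 0.28 (adjusted p = 0.015) and Etfdh by 0.25 (adjusted p = 0.0090). The Etfb call against Vhl mutants ended without double mutant replicate 4 (adjusted p = 0.054). Etfa, the partner subunit of Etfb, had a log2 fold change of -0.10 ± 0.06 SE against wild type and did not pass (adjusted p = 0.37), but fell by 0.22 against Pbrm1 mutants (adjusted p = 0.023). Without double mutant replicate 3 or Pbrm1 mutant replicates 1, 3 or 4 that Etfa call ended (adjusted p from 0.050 to 0.078).

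Ehhadh, the peroxisomal bifunctional enzyme of the middle steps, measured 10.92, 10.88, 11.08 and 10.99 in wild-type and 10.48, 10.48, 10.76 and 10.71 in double mutant arrays, with no overlap (log2 fold change -0.35 ± 0.09 SE, adjusted p = 0.010). Crat, which moves acetyl and short acyl groups to carnitine, measured 9.75, 9.84, 9.91 and 9.97 in wild-type and 9.66, 9.63, 9.62 and 9.67 in double mutant arrays. These too do not overlap (log2 fold change -0.22 ± 0.06 SE, adjusted p = 0.021), but leaving out wild-type replicate 3 or 4 or double mutant replicate 3 ended the Crat call (adjusted p from 0.052 to 0.063).

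**Figure D2:**
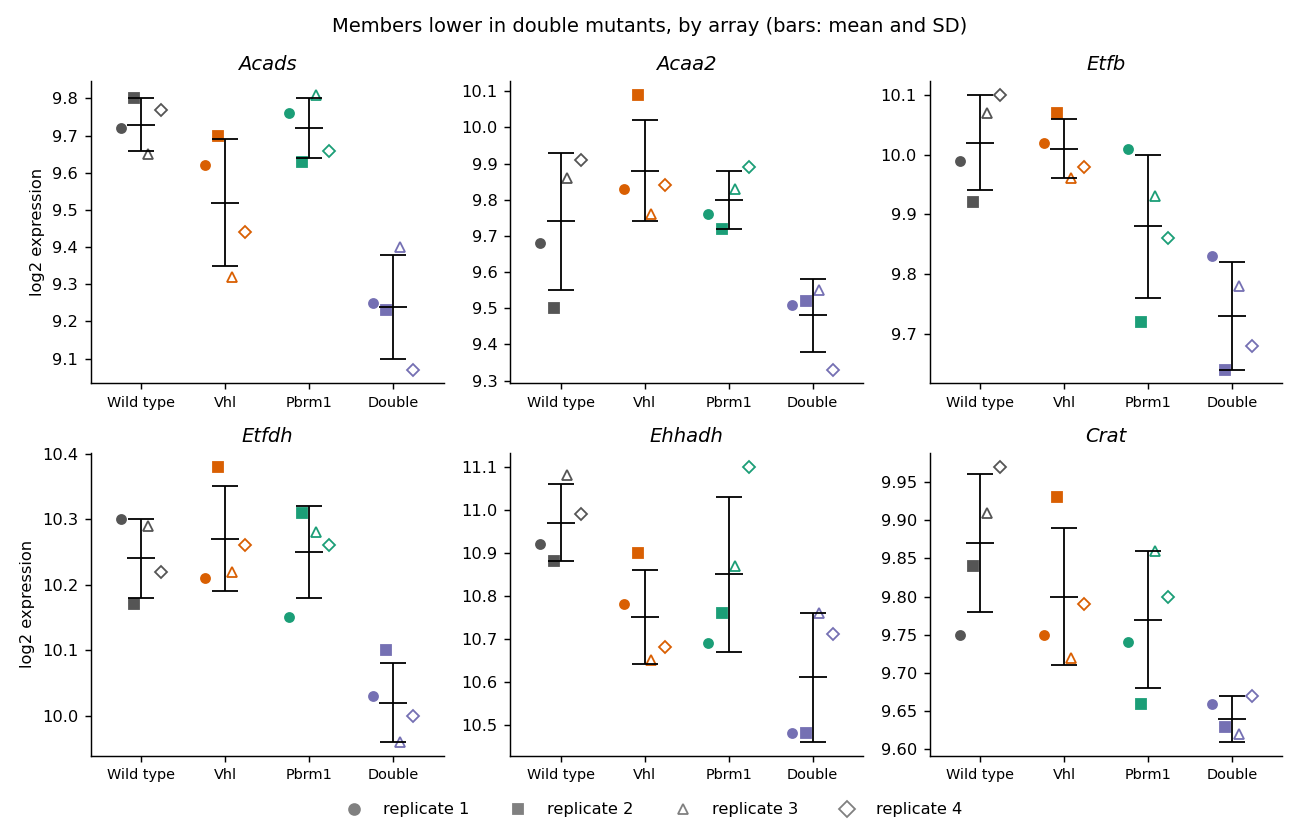
Log2 expression (vertical axis) of Acads, Acaa2, Etfb, Etfdh, Ehhadh and Crat in each array by genotype, with mean and SD of 4 arrays; symbols mark the replicate. Double mutant Acads lies between 9.07 and 9.40 against 9.65 to 9.80 in wild type, and Acaa2, which did not pass against wild type, overlaps it.

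For the genes described in Pbrm1 mutants, the double mutant arrays spread more widely, Slc25a20 least. Slc25a20 measured 7.11, 7.06, 7.31 and 7.28 there and fell by 0.42 on the log2 scale (± 0.08 SE, adjusted p = 6.4e-04), with no overlap with wild type. Acox2 measured 7.89, 7.90, 6.54 and 6.53 and fell 2.27-fold, a log2 difference of -1.19 ± 0.24 SE (adjusted p = 0.0023). Replicates 1 and 2 lie between the wild-type and Pbrm1 mutant ranges, and replicates 3 and 4 lie below every Pbrm1 mutant array.

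Decr2 measured 8.71, 8.74, 9.37 and 9.23 in double mutants, where the order of the pairs is turned, and overlaps wild type (log2 fold change -0.41 ± 0.12 SE, adjusted p = 0.032). Eci1 measured 9.28, 9.30, 8.88 and 8.76 and overlaps it too (log2 fold change 0.33 ± 0.10 SE, adjusted p = 0.033). Against the Pbrm1 mutant range, replicates 1 and 2 lie within it for Eci1 and below it for Decr2, and replicates 3 and 4 lie below it for Eci1 and above it for Decr2. Leaving out wild-type replicate 1 or 3 or double mutant replicate 1 or 2 ended both calls (adjusted p from 0.056 to 0.10 for Decr2 and from 0.059 to 0.10 for Eci1). Acot2 measured 10.59, 10.44, 10.65 and 10.63 in double mutants and rose 1.26-fold, a log2 difference of 0.34 ± 0.09 SE (adjusted p = 0.011). The Acot2 call ended without the 3 arrays of raised adipose markers (adjusted p = 0.052).

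The split in double mutants did not follow the labels' numbers. Replicate 3 shares a number with replicates 1 and 2, yet across all genes the SD of its difference was 0.273 from replicate 1, 0.269 from replicate 2 and 0.228 from replicate 4, while replicates 1 and 2 differed by 0.210. The means of replicates 1 and 2 and of replicates 3 and 4 differed by 1.36 for Acox2 and by 0.57 for Decr2 and by less than 0.50 for the other 33 genes. In the other groups such a pair difference over 0.50 was found for Acot3 in wild type and for Ppara and Acot1 in Vhl mutants. What the split stands for, and whether replicate 3 carries the right number, was not tested. The main fit and the averaging per number use the labels as given.

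**Figure D3:**
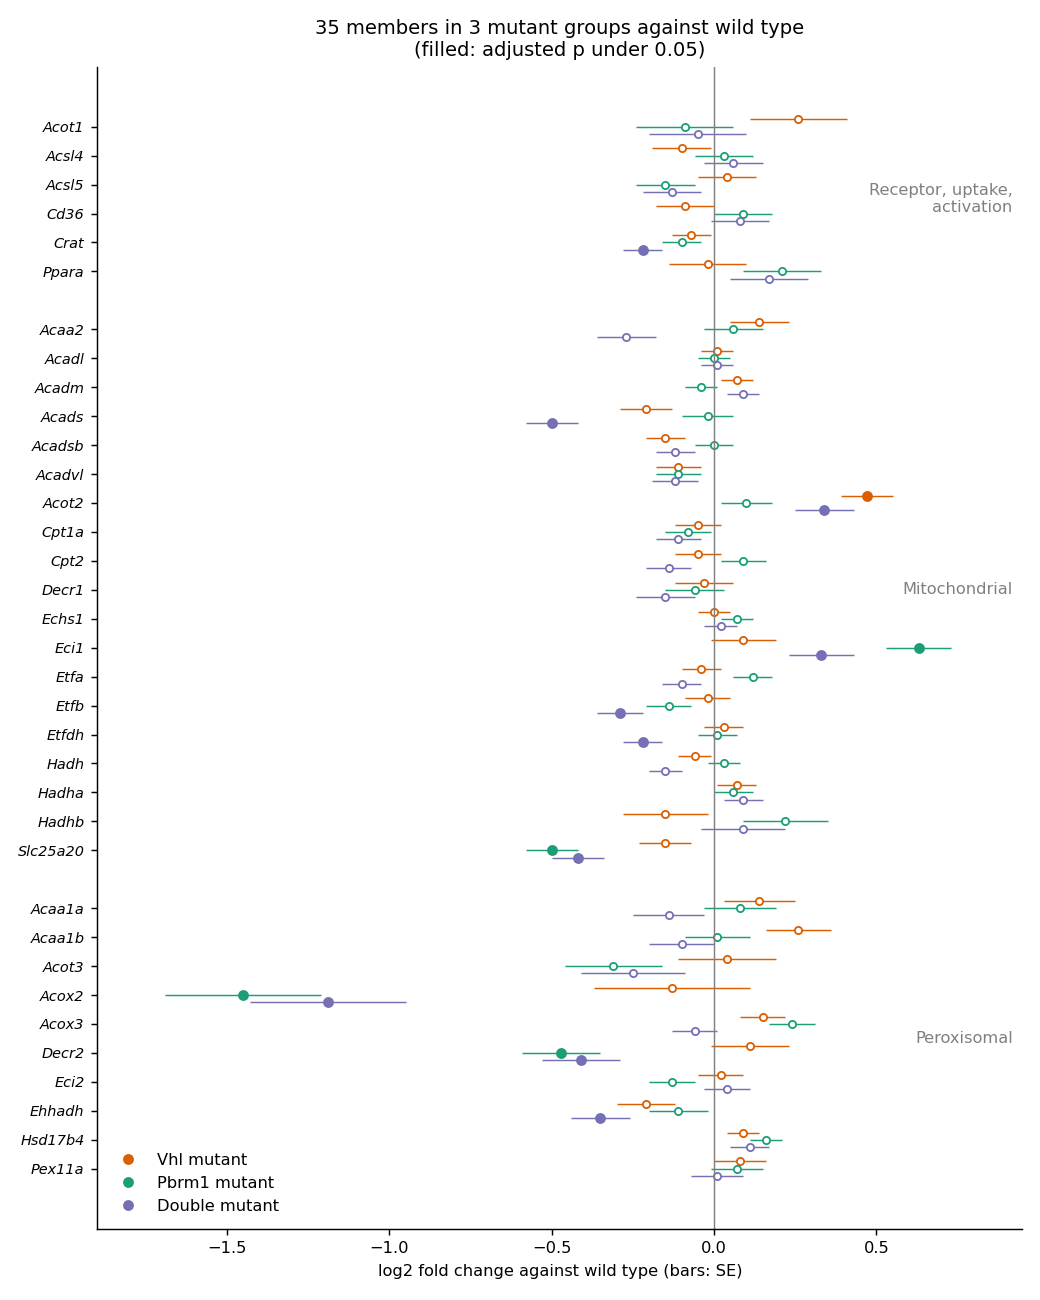
Log2 fold change against wild type (horizontal axis, bars SE) of the 35 genes in Vhl, Pbrm1 and double mutants, grouped by compartment; filled points passed at adjusted p under 0.05. Acox2 stands apart at -1.45 in Pbrm1 and -1.19 in double mutants, and other points lie between -0.50 and 0.63.

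Comparisons among the mutants leave wild type aside, and all 3 groups carry the same mixed strain label. The make-up of each animal is not given, so strain may still differ between these groups. A batch that the numbers of the Vhl mutants might mark also stays in comparisons with that group. With Pbrm1 loss added to Vhl loss 8 of the 35 genes fell and 0 rose, where 2.55% of all genes fell and 3.80% rose (limma, 1 higher at an unadjusted p under 0.05). Those 8 were Acox2 (log2 fold change -1.05 ± 0.24 SE, adjusted p = 0.011), Decr2 (-0.52), Acaa2 (-0.41), Acaa1b (-0.36), Acads, Slc25a20 (-0.28), Etfb and Etfdh. The fall of Acox2 ended without double mutant replicate 4 (adjusted p = 0.054), that of Slc25a20 without double mutant replicates 1 or 2 or any of Vhl mutant replicates 2 to 4 (adjusted p from 0.062 to 0.093), and that of Acaa1b, a peroxisomal thiolase with a near-identical partner Acaa1a, without any of 10 arrays (adjusted p from 0.053 to 0.17). Without the 3 arrays of raised adipose markers the count was 2. Over all genes 509 were then higher and 321 lower, from 842 and 566 with those arrays. With Vhl loss added to Pbrm1 loss 6 fell and 0 rose, where 3.37% of all genes fell and 6.82% rose (3 higher at an unadjusted p under 0.05). These were Acads, Acaa2 (log2 fold change -0.33, adjusted p = 0.017), Acox3 (-0.30, adjusted p = 0.0055), Etfdh (-0.23), Etfa and the mitochondrial hydroxyacyl-CoA dehydrogenase Hadh (-0.18). Of them Acaa2 lost its call without double mutant or Pbrm1 mutant replicate 4 (adjusted p from 0.057 to 0.083), and Hadh without double mutant replicate 4 or Pbrm1 mutant replicate 3 (adjusted p from 0.061 to 0.075).

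Between the single mutants, 4 genes were higher and 1 lower in Vhl mutants, where 4.71% of all genes were higher and 2.75% lower. Acox2 was 2.48-fold higher in Vhl mutants (log2 fold change 1.31 ± 0.24 SE, adjusted p = 0.0012), measuring 8.33, 8.31, 8.22 and 8.09 there, and the groups lie far apart. Decr2 (log2 fold change 0.58, adjusted p = 0.0039), Slc25a20 (0.35, adjusted p = 0.0044) and Acot2 (0.37, adjusted p = 0.0077) were also higher, and Eci1 lower (-0.54, adjusted p = 9.3e-04). Against wild type the Vhl mutants did not pass for Acox2 (log2 fold change -0.13 ± 0.24 SE, adjusted p = 0.85), Decr2, Slc25a20 or Eci1. Both comparisons use the same Vhl mutant arrays.

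The interaction asks whether the 2 deletions add up: it subtracts both single mutant effects from that of the double mutants. Each of these effects is taken against wild type. Strain and Cre therefore do not cancel in the interaction and cannot be told apart from the deletions there. It passed downward for 2 of the 35 genes and upward for 0, where 0.852% of all genes passed downward and 1.78% upward (limma, 0 higher at an unadjusted p under 0.05). Acox3, a peroxisomal oxidase of branched chains, measured 9.25, 9.23, 9.07 and 9.07 in wild-type, 9.29, 9.28, 9.31 and 9.35 in Vhl mutant, 9.30, 9.28, 9.54 and 9.45 in Pbrm1 mutant and 9.06, 9.02, 9.22 and 9.08 in double mutant arrays. Each single mutant group lies above wild type in every array, and the double mutants overlap wild type (interaction -0.45 ± 0.10 SE, adjusted p = 0.013).

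Acaa2, the mitochondrial thiolase that ends the cycle, measured 9.68, 9.50, 9.86 and 9.91 in wild-type, 9.83, 10.09, 9.76 and 9.84 in Vhl mutant, 9.76, 9.72, 9.83 and 9.89 in Pbrm1 mutant and 9.51, 9.52, 9.55 and 9.33 in double mutant arrays. The double mutants lie below all arrays of both single mutants (interaction -0.47 ± 0.12 SE, adjusted p = 0.045). This call is narrow: it ended in 10 of the 16 fits that left out 1 array (adjusted p from 0.056 to 0.095), those without wild-type replicates 1 or 2, Vhl mutant replicates 2 or 4, Pbrm1 mutant replicates 1, 3 or 4 or double mutant replicates 1, 2 or 4.

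Mitochondrial and peroxisomal steps were compared through the median difference from the wild-type mean in each array, as a description. In Vhl mutants the peroxisomal median was above the mitochondrial one in all 4 arrays, by 0.10, 0.05, 0.12 and 0.13. In Pbrm1 mutants it was below in all 4, by 0.06, 0.12, 0.10 and 0.07. The double mutant differences lay between -0.07 and 0.03 and the wild-type ones between -0.03 and 0.01. From the fitted fold changes the peroxisomal minus mitochondrial difference was 0.11, -0.06 and 0.00 in Vhl, Pbrm1 and double mutants. The difference was not tested. The median size of a single gene's fold change, in the same order, was 0.07, 0.07 and 0.14 for the mitochondrial genes, 0.12, 0.14 and 0.13 for the peroxisomal genes and 0.11, 0.10 and 0.12 for all genes.

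**Figure D4:**
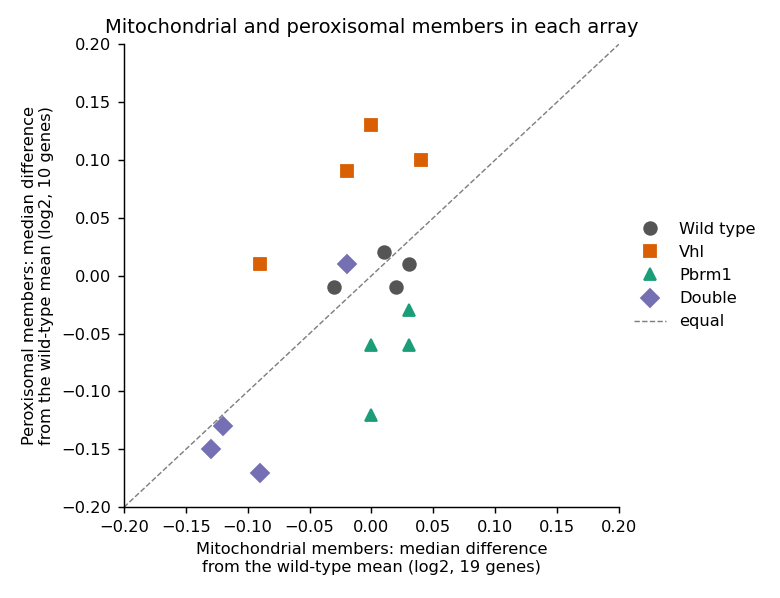
Median difference from the wild-type mean (log2) of the 19 mitochondrial genes (horizontal axis) and the 10 peroxisomal genes (vertical axis), 1 point per array, with the line of equality. The 4 Vhl mutant arrays lie above the line and the 4 Pbrm1 mutant arrays below it; 3 double mutant arrays are low on both axes and replicate 3 lies near wild type.

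Of the 35 genes, 20 passed in none of the 7 comparisons, with log2 fold changes against wild type from -0.31 to 0.26. The genes named next are among them. Cpt1a, the carnitine transferase that controls entry into mitochondria, had log2 fold changes of -0.05, -0.08 and -0.11 in Vhl, Pbrm1 and double mutants, with 95% intervals reaching from -0.26 to 0.10. Acadl, the long-chain dehydrogenase, lay at 0.01, 0.00 and 0.01 (intervals within -0.10 and 0.12), and Hadha, the large subunit of the trifunctional protein, at 0.07, 0.06 and 0.09. Acadm lay at 0.07, -0.04 and 0.09, and Cd36, the fatty acid uptake receptor, at -0.09, 0.09 and 0.08. The peroxisomal bifunctional enzyme Hsd17b4 lay at 0.09, 0.16 and 0.11. A p above the threshold does not show that these genes were the same in all groups.

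Other genes of lipid oxidation and other PPAR-alpha targets, 50 measured, were tested in the same fit. Of these 2 rose and 3 fell in Vhl mutants, where 2.04% of all genes rose and 1.79% fell. In Pbrm1 mutants 4 rose and 3 fell, where 1.59% and 2.45% of all genes did, and in double mutants 2 rose and 13 fell, where 6.64% and 5.56% did. Nudt7, a peroxisomal enzyme that breaks down coenzyme A, measured 6.21, 6.25, 6.33 and 6.59 in wild-type, 5.86, 5.85, 5.89 and 5.63 in Pbrm1 mutant and 5.20, 5.44, 5.67 and 5.43 in double mutant arrays. Both mutant groups lie below wild type without overlap (log2 fold change -0.54 ± 0.11 SE, adjusted p = 0.0058, and -0.91 ± 0.11 SE, adjusted p = 6.9e-06). Vhl mutants measured 6.52, 6.62, 6.65 and 6.62 and did not pass (adjusted p = 0.22). Slc22a5, which carries carnitine into cells, measured 9.49, 9.43, 9.79 and 9.84 in wild-type and 9.08, 9.11, 9.16 and 9.14 in double mutant arrays, with no overlap (log2 fold change -0.52 ± 0.09 SE, adjusted p = 4.3e-04). Plin2, the lipid droplet coat protein, lay between 7.06 and 7.35 in double mutant arrays and between 8.16 and 8.55 in all 12 others. Its interaction was -0.86 ± 0.11 SE (adjusted p = 1.8e-04).

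Cyp4a14 and Cyp4a12a, fatty acid hydroxylases of the Cyp4a family, passed in both single mutants, in opposite directions. Cyp4a14 measured 7.02, 6.98, 8.63 and 8.39 in wild-type, 10.02, 10.20, 8.90 and 9.05 in Vhl mutant and 6.35, 6.21, 6.13 and 6.16 in Pbrm1 mutant arrays. No groups overlap among these 3 (log2 fold change 1.79 ± 0.31 SE, adjusted p = 0.0021 in Vhl mutants, and -1.54 ± 0.31 SE, adjusted p = 0.0063 in Pbrm1 mutants). Neither Cyp4a14 call held with arrays averaged per number (adjusted p = 0.083 and 0.12). Cyp4a12a fell by 2.34 on the log2 scale in Vhl mutants (adjusted p = 2.3e-05) and rose by 1.28 (adjusted p = 0.0066) in Pbrm1 mutants. Of the other members measured, Cyp4a31 rose by 0.32 in Vhl mutants (adjusted p = 0.027) and did not pass in Pbrm1 mutants, and Cyp4a12b passed in neither. The Cyp4a31 call ended without wild-type replicate 1 or 2 or Vhl mutant replicate 1, 2 or 4 (adjusted p from 0.055 to 0.071). Members of this family are near-identical, and their probe sets may share signal.

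Some inducible targets differed widely between the pairs of arrays that share a number. Pdk4, which blocks glucose oxidation in fasting and was chosen here after its values were seen, measured 7.36, 7.54, 8.34 and 8.48 in wild-type and 9.62, 9.47, 7.65 and 7.66 in Vhl mutant arrays. Wild-type replicates 3 and 4 lie above 1 and 2, and Vhl mutant replicates 1 and 2 lie above 3 and 4. The same pairs are high for Cyp4a14 and for Angptl4, an inhibitor of lipoprotein lipase, which measured 7.69, 7.56, 8.58 and 8.49 in wild-type and 8.91, 8.81, 8.38 and 8.48 in Vhl mutant arrays. Among the 35 genes, Acot2, Acaa1b, Ehhadh, Etfb and Acadl show the same high pairs in both groups with no overlap between pairs. Ppara, Acox3 and Acadsb show the opposite pairs in both groups. How often all genes show either pattern was not counted, so no more is read from these names. Pdk4 did not pass in any group against wild type, and Angptl4 rose in double mutants (log2 fold change 0.67 ± 0.18 SE, adjusted p = 0.016), which no longer passed with wild-type replicate 1 or 2 left out (adjusted p from 0.058 to 0.060) or with arrays averaged per number (adjusted p = 0.10).

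**Figure D5:**
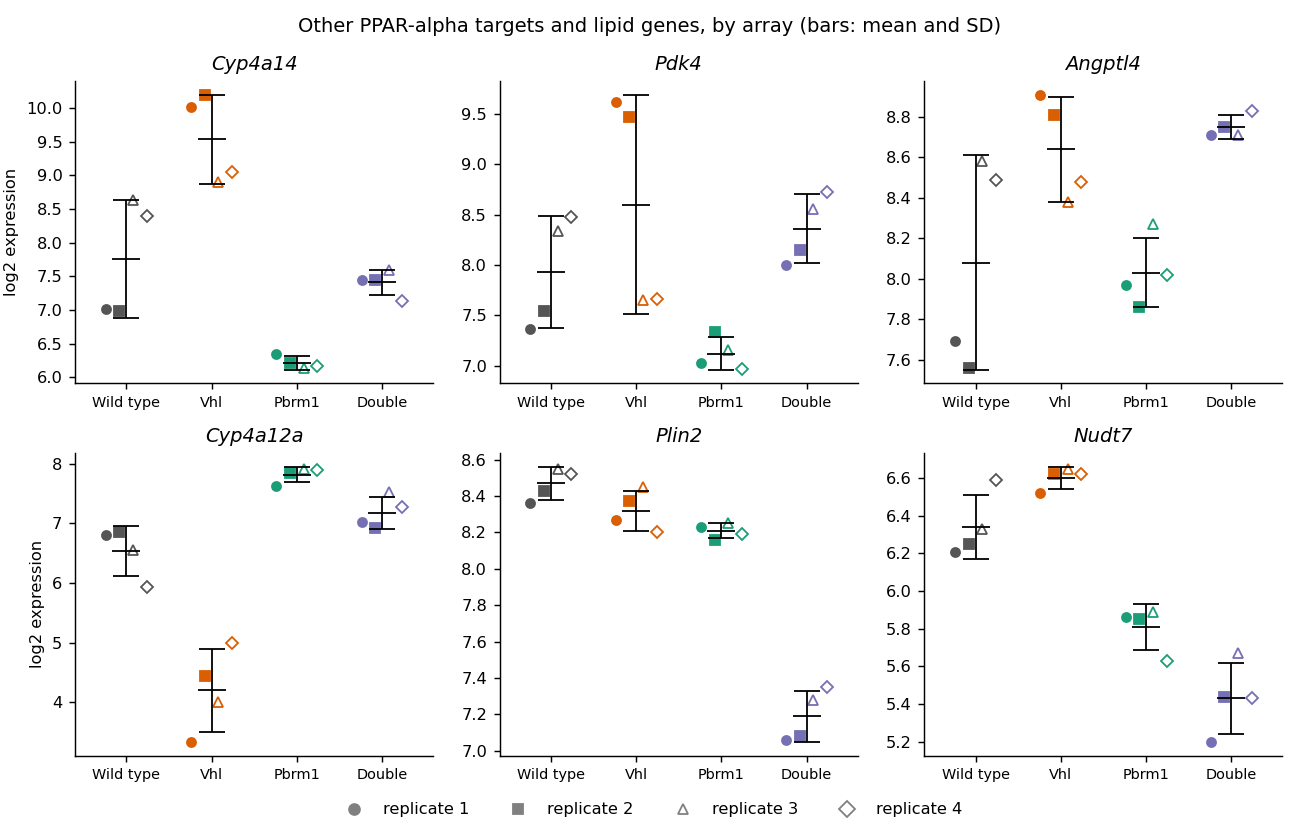
Log2 expression (vertical axis) of Cyp4a14, Pdk4, Angptl4, Cyp4a12a, Plin2 and Nudt7 in each array by genotype, with mean and SD of 4 arrays; filled symbols are replicates 1 and 2 and open symbols replicates 3 and 4. Pdk4 in Vhl mutants splits into 9.47 and 9.62 against 7.65 and 7.66, while Plin2 is low in all 4 double mutant arrays.

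Markers of other cells moved with the groups. The median of the 7 tubular injury markers lay 1.29 to 1.64 above the wild-type mean in double mutant arrays and 0.66 to 1.04 in Vhl mutants, that of the 8 macrophage markers 0.28 to 0.64 and 0.57 to 0.93, and that of the 7 endothelial markers 0.27 to 0.43 and 0.26 to 0.52. The 7 collecting duct markers lay 0.69 to 0.98 lower in double mutants, and the 5 distal convoluted tubule markers 0.41 to 0.59 lower. In Vhl mutants the collecting duct median lay between -0.27 and -0.11, and 2 of the 7 fell, where 1.79% of all genes fell. Of 7 thick ascending limb markers, 3 rose (Umod, Cldn16 and Ptger3) and 3 fell (Kcnj1, Cldn10 and Egf) in double mutants. Of all genes 6.64% rose and 5.56% fell there. The median of these 7 lay between -0.23 and -0.06 in double mutants and between -0.10 and 0.03 in wild-type arrays.

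Some markers of the proximal tubule also passed in double mutants. Of the 15, 5 fell there against wild type (Slc34a1, Slc5a2, Slc22a18, Slc7a13 and Miox) and Slc5a12 rose, with log2 fold changes from -0.75 to 0.42. Of all genes 5.56% fell and 6.64% rose. Against Pbrm1 mutants 7 of the 15 fell and 1 rose, where 3.37% of all genes fell and 6.82% rose. Against Vhl mutants 2 fell and 1 rose, where 2.55% of all genes fell and 3.80% rose. The median of the 15 lay between -0.10 and -0.02 in double mutant arrays, beside the mitochondrial genes at -0.13 to -0.02 and the peroxisomal genes at -0.17 to 0.01. In Pbrm1 mutants 2 of the 15 rose and 0 fell, where 1.59% of all genes rose and 2.45% fell, and the median lay between 0.02 and 0.08. The 5 distal convoluted tubule markers lay 0.21 to 0.38 below the wild-type mean in Pbrm1 mutants, where 2 fell, and between -0.32 and 0.20 in wild-type arrays. The collecting duct markers lay between -0.27 and 0.04, the injury markers between -0.21 and 0.10, the macrophage markers between -0.32 and -0.05 and the endothelial markers between -0.24 and -0.02 in Pbrm1 mutants.

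The 7 adipose markers were raised in 3 arrays, by 0.92 in Pbrm1 mutant replicate 3, by 0.66 in double mutant replicate 3 and by 0.49 in Vhl mutant replicate 2. Without those arrays 1, 4 and 10 genes passed in Vhl, Pbrm1 and double mutants against wild type, the same counts as with them. The genes were not all the same, as the Acot2 call in double mutants ended. Over the 7 comparisons 10 of the 36 calls ended without those arrays. In bulk tissue fewer cells of a type and less RNA per cell cannot be told apart, and the part of these cells in the results was not tested.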

How the data were processed

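Biotin-labelled cRNA of kidney cortex was hybridized to Affymetrix arrays. The authors deposited log2 values; the submitters' processing notes name RMA and Affymetrix Expression Console 1.4. The array's build is not given in the sources used here. Of 41345 probe sets, 23521 carried 1 gene symbol, and 1814 with several and 16010 unlisted were left out. The probe set of highest mean was used per gene, giving 22180 genes, with no filter. 0 columns were unused. The members and gene lists, with mitochondrial and peroxisomal sets assigned by known location, were chosen with earlier results of these data known.

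One limma 3.58.1 model (R 4.3.3) was fitted to all 16 arrays, with the description number as a random block (correlation 0.0838), a variance trend and Benjamini-Hochberg adjustment over all genes. It weights double mutant replicate 4 more, so fold changes differ slightly from differences of means. The script was tested on simulated data. Named genes were the members and, from the other lists, called genes chosen by a rule. Motif search and tables used Python 3.11.15, pandas 2.3.3 and numpy 2.4.6, and figures matplotlib 3.10.9. Precision is limited by the number of arrays, with a median SE of 0.12 for a single mutant against wild type and 0.16 for the interaction. The closing section gives the effect of 25 other settings and of 3 more chosen after seeing the data.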

Additional observations from a re-analysis of the deposited data

Results flagged for a closer look

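In 5 of 140 groups of 4 arrays, 1 array lay far from the other 3, where chance gives about 1 in 20. Acadm measured 12.36 in double mutant replicate 3 against 12.27 to 12.28 in the others. Acadl measured 10.10 in that array against 10.13 in the others. Hadh measured 11.76 in Vhl mutant replicate 2 against 11.65 to 11.67. Eci1 measured 8.87 in Vhl mutant replicate 4 against 8.78 to 8.79. Eci2 measured 8.49 in wild-type replicate 3 against 8.70 to 8.73.

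The interaction term, in which strain and Cre cannot be told apart from the deletions, passed for 5 genes. It was -0.47 for Acaa2 and -0.45 for Acox3 among the 35 genes, and 1.71 for Cyp4a12a, -0.63 for Nudt7 and -0.86 for Plin2 among the other lipid genes. The Nudt7 term ended in 9 fits that left out 1 array (adjusted p from 0.052 to 0.063), and the Acaa2 term in 10.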

How the results depend on the processing

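Of the 36 calls made for members over the 7 comparisons, 6 held under all 28 alternatives (Slc25a20, Acads and Etfb in double mutants against wild type, Acads in double against Pbrm1 mutants, and Acox2 and Eci1 in Vhl against Pbrm1 mutants), 23 held in all 16 fits that left out 1 array, and 0 changed sign. Leaving out 1 array gave 1 to 1 called genes in Vhl mutants, 3 to 5 in Pbrm1 mutants and 7 to 12 in double mutants against wild type, 5 to 9 in double against Vhl mutants, 4 to 8 in double against Pbrm1 mutants, 5 to 6 in Vhl against Pbrm1 mutants and 1 to 2 for the interaction. The peroxisomal minus mitochondrial difference ran from 0.09 to 0.13 in Vhl, from -0.10 to -0.03 in Pbrm1 and from -0.03 to 0.04 in double mutants. Apart from the fit without double mutant replicate 4, the fits that left out 1 array kept another array of the same number. They therefore do not show whether a call holds without that number. With arrays averaged per description number, which leaves 2 values per group, the counts were 0 in Vhl mutants, 4 in double mutants, 2 in double against Vhl, 1 in double against Pbrm1 and 3 in Vhl against Pbrm1 mutants, and 0 for the interaction, and the peroxisomal minus mitochondrial difference in double mutants was -0.07. Averaged after giving double mutant replicate 3 the number of replicate 4, an alternative chosen after seeing the data, they were 0 in Vhl, 0 in Pbrm1 and 3 in double mutants, 0 in double against Vhl, 1 in double against Pbrm1, 2 in Vhl against Pbrm1 and 0 for the interaction. With 1 prior variance for all genes (no trend) 6 passed in double mutants, 3 against Vhl and 2 against Pbrm1 mutants, and 0 for the interaction. Centring arrays left 5 in double against Vhl mutants. Without the arrays of raised adipose markers, also chosen after seeing the data, 2 passed in double against Vhl mutants and 1 for the interaction. The interaction count was 1 with quantile normalization, with double mutant replicates 2 and 3 averaged, with the moved number as a block, and with the replicate number as a block. The replicate numbers share nothing but a number between groups (24 pairs, r from -0.0744 to 0.0590), and that block moved no other member count by over 1.5 times. The causes were not tested.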

Other observations

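The genes that moved in Pbrm1 mutants were placed among their neighbours on the chromosome (GRCm38.p6), a check chosen after the values were seen. Acox2 and Pbrm1 both lie on chromosome 14, with 125 tested genes between them, and Eci1 and Decr2 both on chromosome 17, with 83 between them. Of the 20 nearest tested genes, 3 passed in Pbrm1 mutants against wild type around Acox2, 1 around Decr2, 0 around Slc25a20 and 5 around Eci1 (limma), where 1.59% of all genes rose and 2.45% fell. The called neighbours of Eci1 were Abca3, Amdhd2, Pkd1, Rab26os and Rnps1, of which 2 rose and 3 fell, and those of Acox2 were Ptprg (log2 fold change -0.85, adjusted p = 5.1e-06), Abhd6 (-0.48, adjusted p = 3.1e-04) and Gm3696 (0.57, adjusted p = 0.030). Abhd6, which encodes a lipid hydrolase, also fell in Vhl mutants (-0.27, adjusted p = 0.033) and in double mutants (-0.46, adjusted p = 1.4e-04). In double mutants 5 of 20 passed around Acox2, 4 around Decr2, 2 around Slc25a20 and 1 around Eci1. Of all genes 6.64% rose and 5.56% fell there. In Vhl mutants 1, 1, 1 and 0 passed in the same order, where 2.04% of all genes rose and 1.79% fell. Around Acot2 0 of 20 passed in any mutant group. All mutants are of mixed strain and wild type is not, and the part of strain in these values was not tested.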
